A study of Mus musculus with 203 samples.

Results

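The scavenger and efferocytosis receptors described here are 10 mouse genes, *Msr1*, *Marco*, *Scarb1*, *Cd68*, *Cd163*, *Stab1*, *Mertk*, *Axl*, *Gas6* and *Timd4*, chosen by name among the 25094 genes listed for RNA-seq of RAW264.7 cells (hereafter RAW cells). RAW cells are a BALB/c mouse macrophage line. The cells carried either an shRNA against GFP (shGFP, the control) or an shRNA against the histone demethylase KDM1A (shKDM1A), and each was left untreated or given 20 ng/ml of interleukin 4 (IL4) for 6 h. The 4 groups, shGFP, shGFP with IL4, shKDM1A and shKDM1A with IL4, held 4 libraries each and were compared to ask how IL4 and KDM1A depletion change macrophage gene expression. Both shRNAs were delivered by lentivirus and both lines were selected with puromycin. A single shRNA against *Kdm1a* is named, so an effect of the knockdown and of that line cannot be told apart. The methods speak of biological replicates in general, but nothing read here says that these libraries came from separate cultures, so p-values measure the spread between these libraries, which may be technical. All 10 genes are also listed in a second table, of bone marrow-derived macrophages (BMDMs) that were wild-type or lacked *Gps2*, but that table holds the authors' comparisons alone and was not analysed here.

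Scavenger receptors are surface proteins with which macrophages take up modified lipoproteins, bacteria and debris, while efferocytosis is the engulfment of apoptotic cells. In efferocytosis, phosphatidylserine exposed on a dying cell is recognised directly, for example by the product of *Timd4*, or through a bridge such as GAS6, which binds the receptor tyrosine kinases AXL and MERTK. Tissue-resident macrophages are known for high expression of many of these receptors, and IL4 is the cytokine that drives alternative (M2) activation, through the transcription factor STAT6.

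The values are the log2 expression values that the authors deposited for each library, moderated for low counts, so that differences between groups are log2 differences on that scale and understate changes of weakly expressed genes. Libraries held 17554721 to 27782568 tags, and the ranges of the 4 groups overlapped. *Kdm1a* checked the labels. It was at 11.18 ± 0.04 (SD, n = 4) in shGFP and 10.30 ± 0.05 in shKDM1A cells without IL4, and at 11.10 ± 0.03 and 10.32 ± 0.03 with IL4, so that it fell by 45.8% without IL4 and fell by 42.0% with IL4 in the shKDM1A line. The 6 macrophage markers examined (*Csf1r*, *Adgre1*, *Itgam*, *Fcgr1*, *Spi1* and *Lyz2*) lay between 9.52 and 17.18 in the 16 libraries. The 9 markers of T cells, B cells, fibroblasts, epithelium, endothelium, neutrophils and erythroid cells lay between -2.27 and 0.76, and 4 of them were listed at 0 in all 16 libraries.

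Of the 10 genes, 6 were expressed above the limit for testing, which was 1 on the log2 scale in 4 or more libraries, and they passed it in all 16. *Marco*, a class A scavenger receptor of bacteria and particles (mm9, chromosome 1, 122371115 to 122401601), was listed at 0 in every library. So were *Cd163*, the haemoglobin-haptoglobin receptor (chromosome 6, 124254669 to 124280545), and *Timd4*, a phosphatidylserine receptor of resident macrophages (chromosome 11, 46624301 to 46657835). *Mertk*, the TAM-family receptor tyrosine kinase of efferocytosis (chromosome 2, 128524651 to 128628743), lay between -0.9985 and -0.9802 in the 16 libraries. These 4 genes lay below the limit with and without IL4 and in both lines, and they entered no test. Over all genes listed, 8488 were listed at 0 in all 16 libraries, and 12905 were tested.

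To set levels of different genes beside each other, the log2 value was reduced by the log2 of the length in kilobases of the transcript counted. On this scale *Cd68*, which encodes a heavily glycosylated lysosomal protein of macrophages, was highest in all 4 groups, at 13.35 ± 0.03 in shGFP cells, above 99.0% of the genes tested. *Scarb1*, the class B receptor for high-density lipoprotein, and *Msr1*, the class A scavenger receptor for modified low-density lipoprotein, came next at 10.57 ± 0.04 and 10.38 ± 0.02. *Gas6*, the bridging ligand, followed at 7.03 ± 0.06, *Stab1*, a multidomain scavenger receptor, at 4.63 ± 0.04 and *Axl*, the receptor of GAS6, at 3.40 ± 0.07, the last of these above 14.0% of the genes tested. No neighbours in this order overlapped in their libraries in any group. The order of *Scarb1* and *Msr1* turned over with IL4: *Scarb1* was the higher without IL4 in both lines, at 10.57 against 10.38 in shGFP and 10.83 against 10.47 in shKDM1A cells. With IL4 *Msr1* was the higher, at 10.47 against 10.02 and at 10.78 against 10.38. The 6 genes kept the other places in all 4 groups.

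**Figure D1:**
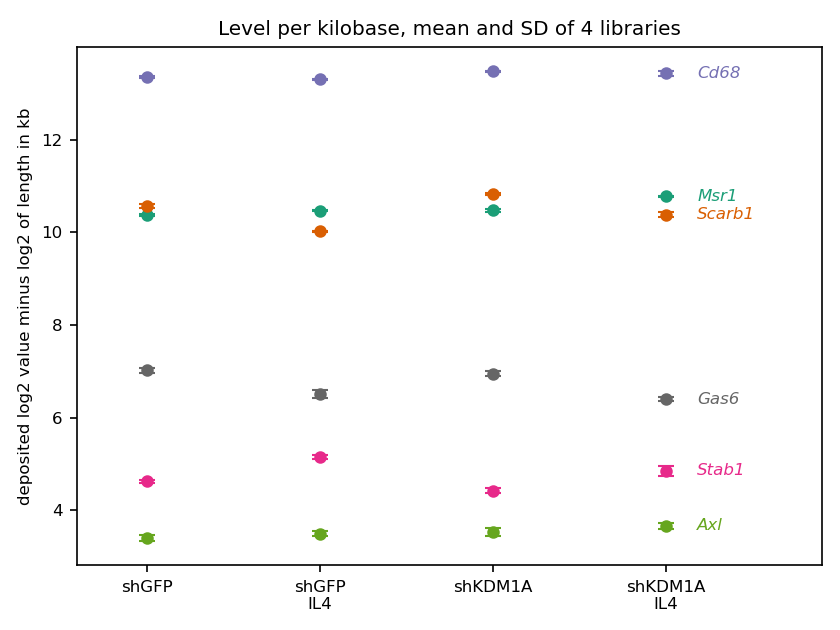
Level per kilobase of the 6 genes above the limit for testing (y axis, deposited log2 value minus log2 of the transcript length in kilobases) in the 4 groups of RAW cells (x axis); points are means and bars SDs of 4 libraries. *Cd68* stands above 13 and *Axl* below 4 in every group, and *Msr1* passes *Scarb1* in both groups with IL4.

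The 6 genes differed in direction with IL4. *Stab1* and *Msr1* rose and *Scarb1* and *Gas6* fell in both lines, *Cd68* did not pass the test in either, and *Axl* passed it in shKDM1A cells. In shGFP cells 2 of the 6 rose and 2 fell, against 13.1% and 13.7% of all genes tested. In shKDM1A cells 3 rose and 2 fell, against 13.6% and 13.5%. Their median difference was 0.02 in shGFP and 0.05 in shKDM1A cells, beside -0.0005 and -0.0025 over all genes tested. Throughout, a call is an adjusted p under 0.05 (limma, Benjamini-Hochberg adjustment over all genes tested). Cells were measured in bulk, where fewer cells expressing a gene and less RNA per cell cannot be told apart.

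Of the 6 genes, *Stab1* (chromosome 14, 31952203 to 31981827, minus strand), whose product clears oxidised lipoprotein and extracellular proteins, had the largest rise with IL4. It stood at 7.60, 7.57, 7.66 and 7.63 in the shGFP libraries and at 8.12, 8.17, 8.19 and 8.10 in the shGFP libraries with IL4. In shKDM1A cells it stood at 7.47, 7.45, 7.40 and 7.33 without IL4 and at 7.75, 7.79, 7.99 and 7.86 with it. All libraries with IL4 lay above all without it, in both lines. The log2 difference was 0.53 (standard error 0.04, adjusted p = 1.03e-07), a rise of 44.6%, in shGFP cells and 0.43 (standard error 0.04, adjusted p = 1.36e-06) in shKDM1A cells. The annotated exons of *Stab1* share 109 bases with those of *Nt5dc2* on the opposite strand, and reads were counted on both strands. *Nt5dc2*, at 9.76 in shGFP cells, differed with IL4 by 0.02 (adjusted p = 0.658) in shGFP and -0.02 (adjusted p = 0.751) in shKDM1A cells. None of the other 9 genes shared exon bases with another annotated gene.

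*Scarb1* (chromosome 5, 125757457 to 125821464, minus strand) fell in both lines. In shGFP cells it stood at 11.91, 11.89, 11.93 and 11.84 without IL4 and at 11.35, 11.32, 11.36 and 11.34 with IL4. In shKDM1A cells the values were 12.19, 12.14, 12.13 and 12.15 without IL4 and 11.77, 11.72, 11.64 and 11.69 with it. The groups with and without IL4 were apart in both lines. The differences were -0.55 (standard error 0.03, adjusted p = 1.15e-10) in shGFP and -0.45 (standard error 0.03, adjusted p = 1.63e-09) in shKDM1A cells, and the level fell by 31.7% in the former and fell by 26.7% in the latter.

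*Msr1* (chromosome 8, 40688806 to 40728032, minus strand) rose slightly with IL4 in shGFP cells and more in shKDM1A cells. The shGFP libraries held 12.24, 12.24, 12.25 and 12.21 without IL4 and 12.34, 12.31, 12.32 and 12.34 with IL4. The shKDM1A libraries held 12.33, 12.30, 12.37 and 12.34 without IL4 and 12.64, 12.65, 12.63 and 12.63 with IL4. The 4 shKDM1A libraries with IL4 lay above all other 12. The difference with IL4 was 0.09 (standard error 0.02, adjusted p = 0.00117), a rise of 6.45%, in shGFP and 0.30 (standard error 0.02, adjusted p = 1.73e-09), a rise of 23.4%, in shKDM1A cells.

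*Cd68* (chromosome 11, 69477715 to 69479672, minus strand) was at 13.65, 13.66, 13.64 and 13.70 in shGFP cells and at 13.61, 13.58, 13.60 and 13.63 with IL4. In shKDM1A cells it was at 13.79, 13.78, 13.77 and 13.76, and at 13.72, 13.70, 13.82 and 13.73 with IL4. The difference with IL4 was -0.06 (adjusted p = 0.101, 95% interval -0.11 to -0.0049) in shGFP and -0.03 (adjusted p = 0.325, interval -0.09 to 0.02) in shKDM1A cells. Replicate 3 of the shKDM1A cells with IL4 held the highest value, and without it both differences, of -0.06 and -0.06, passed the threshold (adjusted p = 0.032 and 0.0335).

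In the GAS6-AXL pair the ligand fell with IL4. *Gas6* (chromosome 8, 13465374 to 13494535, minus strand) stood at 8.31, 8.42, 8.40 and 8.43 in shGFP cells and at 7.79, 7.97, 7.83 and 7.94 with IL4. In shKDM1A cells the levels were 8.26, 8.35, 8.36 and 8.29 without IL4 and 7.82, 7.71, 7.74 and 7.79 with it. No library with IL4 reached any library without it. The differences were -0.51 (standard error 0.04, adjusted p = 6.41e-08) and -0.55 (standard error 0.04, adjusted p = 2.85e-08), and the level fell by 29.8% in shGFP and fell by 31.7% in shKDM1A cells.

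*Axl* (chromosome 7, 26541519 to 26573752, minus strand) was the weakest of the 6. It stood at 5.67, 5.81, 5.69 and 5.78 in shGFP cells and at 5.90, 5.77, 5.86 and 5.82 with IL4, where the groups overlapped. In shKDM1A cells it stood at 5.77, 5.95, 5.89 and 5.90 without IL4 and at 5.96, 6.00, 6.09 and 5.98 with IL4. The difference with IL4 was 0.10 (adjusted p = 0.103, 95% interval 0.01 to 0.19) in shGFP and 0.13 (standard error 0.04, adjusted p = 0.0349) in shKDM1A cells. The latter missed the threshold without shKDM1A replicate 1 (0.09, adjusted p = 0.119), shKDM1A replicate 3 (0.13, adjusted p = 0.0576), or the shKDM1A with IL4 replicates 2 (0.13, adjusted p = 0.053) and 3 (0.10, adjusted p = 0.116). It also missed it without the limit on low values (adjusted p = 0.11) and with the compared groups alone (adjusted p = 0.0587), and over all alternatives the adjusted p ran from 0.0133 to 0.119.

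**Figure D2:**
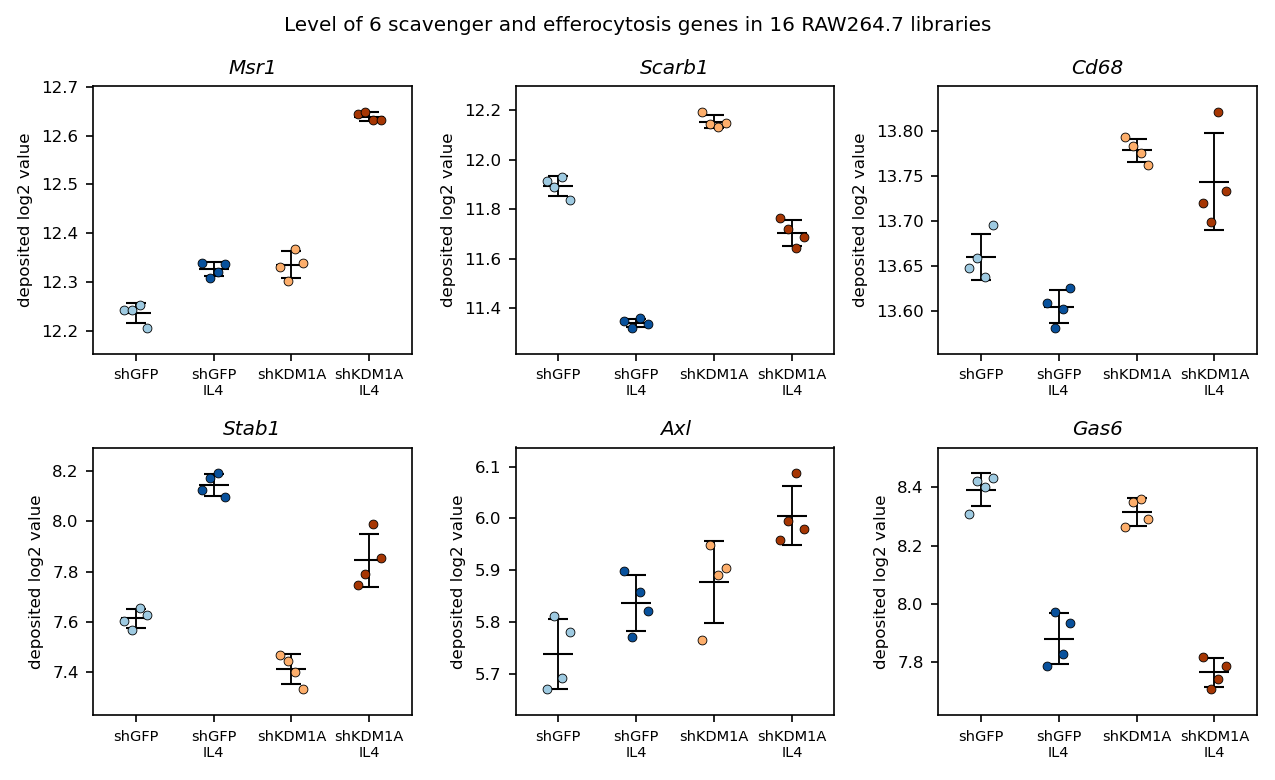
Deposited log2 value (y axis) of the 6 genes in the 16 RAW libraries, by group (x axis); each point is a library, the long dash is the group mean and the bars the SD of 4 libraries. The y axes do not start at 0 and differ between genes. *Stab1* is higher and *Scarb1* and *Gas6* are lower in every library with IL4 than in any library of the same line without it, and *Msr1* is highest in shKDM1A cells with IL4.

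Promoter sequences are shown for the called genes with the opposite IL4 responses for which a RefSeq window was at hand, *Stab1* and *Gas6*, and for *Axl*, whose window held a motif match. They are the 250 bases before the annotated start, 5′ to 3′ on the strand of the gene, from RefSeq (GRCm38.p6), at chr14:31168642-31168891 (minus strand) for *Stab1*, chr8:13494536-13494785 (minus strand) for *Gas6* and chr7:25788734-25788983 (minus strand) for *Axl*. Capitals mark a match to the PU.1 motif below.
Stab1: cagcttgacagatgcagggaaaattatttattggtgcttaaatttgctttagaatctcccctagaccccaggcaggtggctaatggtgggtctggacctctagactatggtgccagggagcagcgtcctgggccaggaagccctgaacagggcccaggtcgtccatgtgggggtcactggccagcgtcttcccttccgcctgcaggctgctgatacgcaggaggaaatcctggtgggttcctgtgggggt
Gas6: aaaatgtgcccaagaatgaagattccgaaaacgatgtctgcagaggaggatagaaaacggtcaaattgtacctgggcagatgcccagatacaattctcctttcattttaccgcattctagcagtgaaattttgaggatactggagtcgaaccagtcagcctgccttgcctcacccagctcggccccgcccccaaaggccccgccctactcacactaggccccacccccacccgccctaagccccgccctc
Axl: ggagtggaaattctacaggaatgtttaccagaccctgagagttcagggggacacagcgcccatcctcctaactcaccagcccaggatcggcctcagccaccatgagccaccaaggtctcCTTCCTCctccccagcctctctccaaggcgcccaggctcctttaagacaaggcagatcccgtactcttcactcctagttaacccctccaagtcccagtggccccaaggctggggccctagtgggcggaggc
In these windows 2 motifs were searched on both strands, TTCNNNNGAA, a spaced palindrome that STAT6 binds, and GAGGAAG, a form of the site of the macrophage factor PU.1. A window was found for 8 of the 10 genes (*Msr1* and *Scarb1* were not matched). The STAT6 palindrome was in none of the 8, and in 5.85% of all 32841 windows of this length. The PU.1 letters were in 2 of the 8, *Axl* (from 131 bases before the start, on the opposite strand) and *Marco* (from 146 bases before it), and in 10.6% of all windows. Absence says only that these letters are not in this window.

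The knockdown comparisons ask how each gene differed between the lines at the same treatment. Without IL4, *Msr1*, *Scarb1*, *Cd68* and *Axl* were higher and *Stab1* was lower in shKDM1A than in shGFP cells. That is 4 higher and 1 lower of 6, against 19.7% and 18.4% of all genes tested. With IL4 the same 4 genes were higher and *Stab1* and *Gas6* lower, against 20.9% and 19.8% of all genes tested. The median difference of the 6 was 0.11 without and 0.15 with IL4, beside -0.0027 and -0.0024 over all genes tested. None of these differences exceeded an absolute log2 value of 1.

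Of the 6, the class B receptor *Scarb1* had the largest knockdown difference in both conditions, with shKDM1A libraries above all shGFP libraries of the same treatment. It was 0.26 (standard error 0.03, adjusted p = 6.48e-07) without IL4, a level 19.8% higher, and 0.36 (standard error 0.03, adjusted p = 1.17e-08) with IL4, a level 28.6% higher. *Msr1* differed by 0.10 (standard error 0.02, adjusted p = 0.000331) without IL4 and by 0.31 (standard error 0.02, adjusted p = 6.53e-10), or 24.1%, with IL4. *Cd68* was higher by 0.12 (standard error 0.02, adjusted p = 0.000878) and 0.14 (standard error 0.02, adjusted p = 0.000199), with groups that did not overlap. With quantile normalization the 2 *Cd68* differences were 0.07 and 0.09, both past the threshold.

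In shKDM1A cells *Stab1* differed by -0.20 (standard error 0.04, adjusted p = 0.00166) without IL4 and -0.30 (standard error 0.04, adjusted p = 4.08e-05) with IL4, where the level fell by 18.8%. Its groups did not overlap in either condition. The opposite-strand neighbour *Nt5dc2* moved the same way, by -0.19 (adjusted p = 0.00025) and -0.23 (adjusted p = 3.15e-05), and the part of its reads in the *Stab1* difference was not tested.

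The pair of ligand and receptor differed weakly. *Axl* was higher by 0.14 (standard error 0.04, adjusted p = 0.0165) without IL4, with overlapping groups, and by 0.17 (standard error 0.04, adjusted p = 0.00485) with IL4, with groups apart. The former missed the threshold without shGFP replicate 1 (0.12, adjusted p = 0.0583), shGFP replicate 3 (0.12, adjusted p = 0.0511) or shKDM1A replicate 2 (0.12, adjusted p = 0.059), without the limit on low values (adjusted p = 0.0568) and with quantile normalization (0.09, adjusted p = 0.0922), its adjusted p ranging from 0.00281 to 0.0922 over all alternatives. *Gas6* differed by -0.08 (adjusted p = 0.159, 95% interval -0.16 to 0.01) without IL4 and by -0.12 (standard error 0.04, adjusted p = 0.032) with IL4, with overlapping groups. The latter missed the threshold without the shGFP with IL4 replicates 2 (-0.09, adjusted p = 0.113) or 4 (-0.10, adjusted p = 0.0949) and without the shKDM1A with IL4 replicates 2 (-0.10, adjusted p = 0.0899) or 3 (-0.11, adjusted p = 0.0726), without the limit on low values (adjusted p = 0.0946) and with the compared groups alone (adjusted p = 0.064), in a range from 0.0092 to 0.113.

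**Figure D3:**
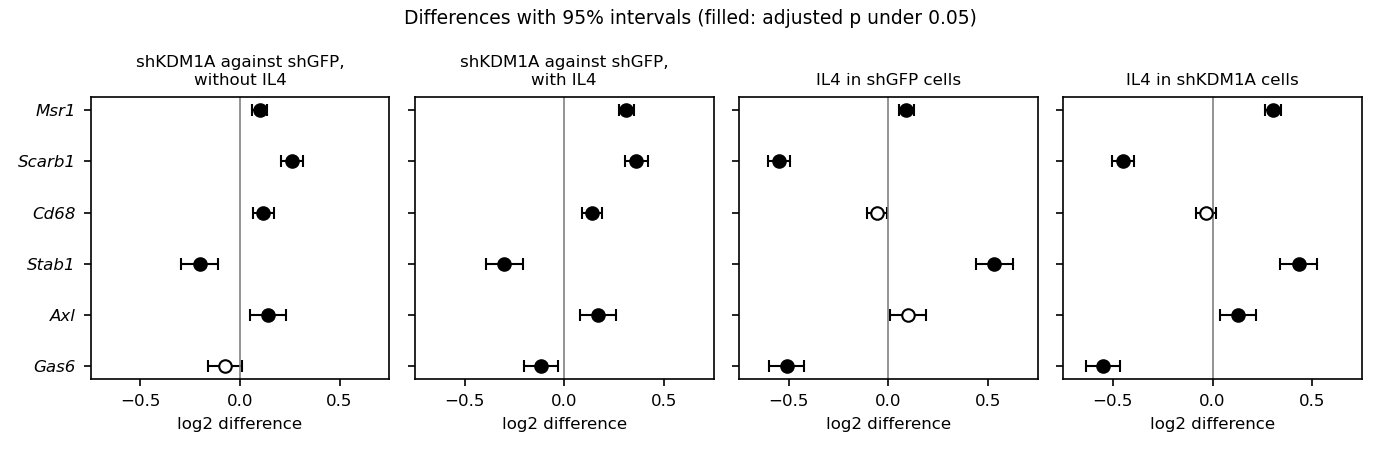
Log2 difference (x axis) of the 6 genes (y axis) in the 4 comparisons, with bars for 95% intervals from the limma model of 16 libraries; filled points have an adjusted p under 0.05. *Scarb1*, at 0.26 and 0.36 in the knockdown comparisons, lies on the opposite side of 0 in both IL4 comparisons, at -0.55 and -0.45.

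The difference in IL4 response between the lines was tested for each gene as an interaction. *Msr1* was the only one of the 6 called: its rise with IL4 was larger in shKDM1A than in shGFP cells by 0.21 (standard error 0.03, 95% interval 0.16 to 0.27, adjusted p = 0.000139). Over all genes tested, 3.56% had a higher and 2.57% a lower response in shKDM1A cells, with a median difference of -0.0015, and the median of the 6 was 0.02. For the other 5 genes the test was not passed, and the intervals were 0.02 to 0.18 for *Scarb1* (difference 0.10, adjusted p = 0.116), -0.23 to 0.03 for *Stab1* (-0.10, adjusted p = 0.366), -0.05 to 0.09 for *Cd68* (0.02, adjusted p = 0.773), -0.10 to 0.16 for *Axl* (0.03, adjusted p = 0.83) and -0.16 to 0.08 for *Gas6* (-0.04, adjusted p = 0.741).

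The pattern of *Scarb1*, which of the 6 genes had the largest knockdown difference under IL4, was set beside that of all other genes tested over the 16 libraries. Among the 5 most like it were *Sc5d*, an enzyme of cholesterol synthesis (Pearson r = 0.988), *Mfsd12*, a lysosomal transporter (0.988), *Lamp1*, a lysosomal membrane protein (0.986), and *Txnip*, the thioredoxin-interacting protein (0.986). The points are libraries that share 4 groups, so these values are a description. *Sc5d* was at 10.19 in shGFP, 9.65 in shGFP with IL4, 10.41 in shKDM1A and 9.98 in shKDM1A cells with IL4, the same order of groups as *Scarb1*.

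A wider list of 48 further genes of scavenging and efferocytosis, without the 10 above, was examined in the same way. Of these, 38 were tested and 5 were listed at 0 in all 16 libraries. With IL4, 22 rose and 6 fell of the 38 in shGFP cells, and 16 rose and 5 fell in shKDM1A cells, with medians of 0.10 and 0.06, beside 13.1% and 13.7%, and 13.6% and 13.5%, of all genes tested and medians of -0.0005 and -0.0025. By role, 7 of 9 tested scavenger receptors and 8 of 10 tested phosphatidylserine receptors or bridges of this list rose and none fell in shGFP cells, and 6 of 9 and 5 of 10 rose and none fell in shKDM1A cells. Outside these counts, *Stab1* and *Msr1* rose and *Scarb1* and *Gas6* fell in both lines. Some rises in shGFP cells were small. *Itgb3*, at only 2.39 without IL4, rose by 0.09. *Mfge8* rose by 0.10 (adjusted p = 0.0191) and missed the threshold without replicate 1 of either shGFP group (adjusted p up to 0.0661). Of the 6 find-me or do-not-eat-me genes, 2 rose and 4 fell in shGFP and 2 rose and 3 fell in shKDM1A cells. The engulfment machinery had 3 of 7 higher and 1 lower in shGFP cells and 1 and 1 in shKDM1A cells, and the 6 transcription factors had 2 higher and 1 lower in both lines.

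*Cd36*, a class B receptor of oxidised lipoprotein and fatty acids, had the largest IL4 difference of the wider list, 1.73 (standard error 0.02, adjusted p = 8.67e-18) in shGFP and 1.40 (adjusted p = 2.44e-16) in shKDM1A cells. *Mrc1*, the mannose receptor and a marker of alternative activation, followed with 1.32 (adjusted p = 3.07e-14) and 0.50 (adjusted p = 5.33e-09). *Itgav* and *Itgb5*, which pair as the integrin that binds the bridge MFGE8, rose by 1.14 and 1.11 in shGFP and by 1.22 and 1.13 in shKDM1A cells. *Havcr2*, which encodes the phosphatidylserine receptor TIM3, rose by 0.96 and 1.11.

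In the knockdown comparisons more genes of the wider list were lower than higher in shKDM1A cells. Without IL4, 8 were higher and 14 lower of 38 (median -0.04), and with IL4 7 were higher and 18 lower (median -0.08), beside 19.7% higher and 18.4% lower, and 20.9% and 19.8%, of all genes tested. The balance over all genes moved with the scaling: 2225 were higher and 2929 lower without IL4, and 2384 and 2917 with IL4, after quantile normalization, while median centring gave 2972 and 2274 with IL4. Of the phosphatidylserine receptors or bridges of this list, 5 of 10 were lower without and 6 of 10 with IL4, and none was higher. Outside this count, *Axl* was higher in both conditions and *Gas6* lower with IL4. Some of the differences counted were small. *Tyro3*, at only 2.96 in shGFP cells, differed by -0.07 without IL4, and *Itgb3* by -0.10 with IL4. That of *Pros1* with IL4 (-0.12, adjusted p = 0.0343) missed the threshold under some alternatives (adjusted p up to 0.118). Of the 6 transcription factors 4 were lower in both conditions and none was higher, while the scavenger receptors had 3 higher and 1 lower of 9 without IL4, and 2 higher and 3 lower with it. The engulfment machinery had 3 higher and 1 lower of 7 without IL4, and 3 higher and 2 lower with it. The find-me or do-not-eat-me genes had 2 higher and 3 lower of 6 in both conditions.

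**Figure D4:**
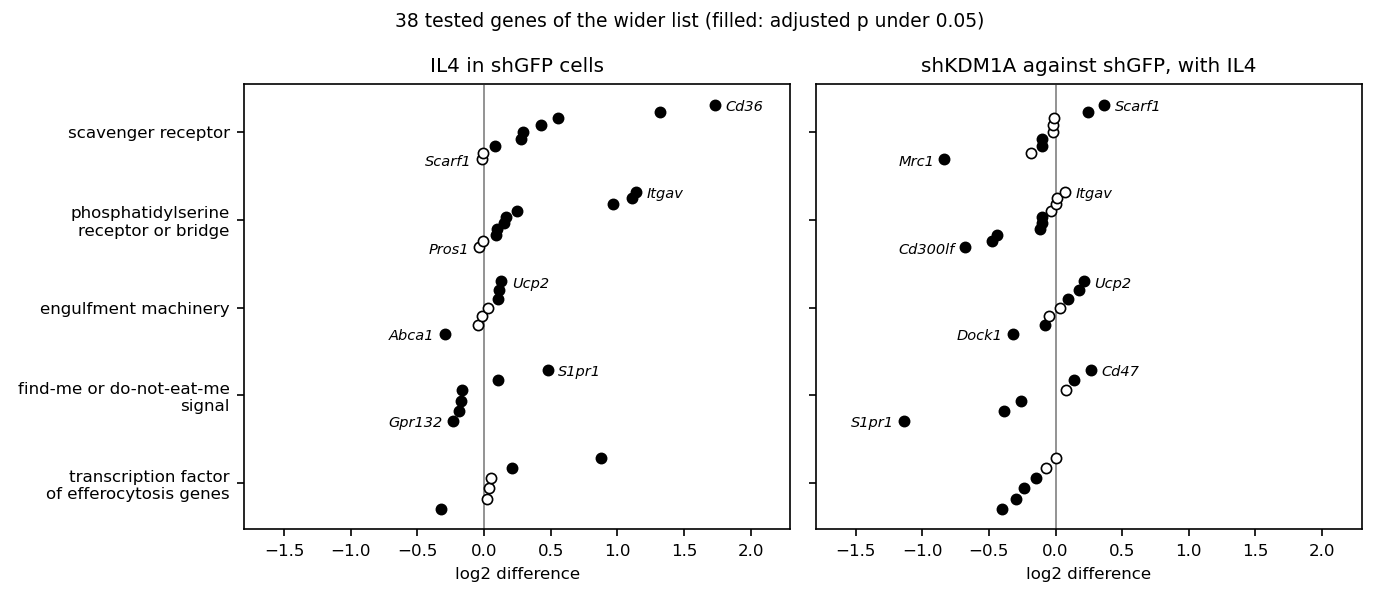
Log2 difference (x axis) of the 38 tested genes of the wider list by role (y axis), with IL4 in shGFP cells (left) and between shKDM1A and shGFP cells with IL4 (right); each point is a gene, filled where the adjusted p was under 0.05, and the named genes are the lowest and highest of each role, the transcription factors left unnamed. On the left no scavenger receptor and no phosphatidylserine receptor or bridge of this list has a filled point below 0, and on the right *S1pr1*, at -1.14, is the lowest.

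*S1pr1*, a receptor for the find-me signal sphingosine-1-phosphate, had the largest knockdown difference of the wider list, -0.98 (standard error 0.04, adjusted p = 1.41e-11) without and -1.14 (standard error 0.04, adjusted p = 2.3e-12) with IL4. Among phosphatidylserine receptors or bridges, *Havcr2* was lower by -0.63 and -0.48, *Cd300lf*, an inhibitory receptor of phosphatidylserine, by -0.59 and -0.68, and *Itgb5* by -0.46 and -0.44. *Sirpa*, the receptor of the do-not-eat-me signal CD47, was lower by -0.47 without and -0.39 with IL4, and *Ppard*, a lipid-sensing nuclear receptor, by -0.43 and -0.41. *Mrc1* differed by -0.02 (adjusted p = 0.735) without IL4 and by -0.83 (adjusted p = 5.27e-12) with IL4.

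Of the wider list, 4 of 38 genes differed in their IL4 response between the lines, 2 of them higher and 2 lower, beside 3.56% and 2.57% of all genes tested. The 4 are scavenger receptors. In the shKDM1A line the response was smaller for *Mrc1*, differing by -0.82 (standard error 0.05, adjusted p = 3.57e-08), and for *Cd36*, by -0.33 (standard error 0.03, adjusted p = 8.41e-06). It was larger for *Cxcl16*, which encodes a chemokine that also binds oxidised lipoprotein, by 0.21 (standard error 0.04, adjusted p = 0.00851), and for *Colec12*, a scavenger receptor with a lectin domain, by 0.15 (standard error 0.03, adjusted p = 0.00717). The difference of *Msr1*, at 0.21, was of the size of that of *Cxcl16*. These responses arose in different ways when the lines were compared at the same treatment. *Cd36* was higher in shKDM1A cells by 0.32 (adjusted p = 4.63e-09) without IL4 and differed by -0.02 (adjusted p = 0.559) with it. *Cxcl16* differed by -0.23 (adjusted p = 1.48e-05) without IL4 and by -0.02 (adjusted p = 0.692) with it. *Msr1*, by 0.10 and 0.31, and *Colec12*, by 0.10 and 0.25, were higher in both conditions. Median centring of the libraries gave 7 such genes instead of 4, adding *Cx3cr1*, *Gpr132* and *Sirpa* of the find-me or do-not-eat-me genes (named after their values were seen).

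**Figure D5:**
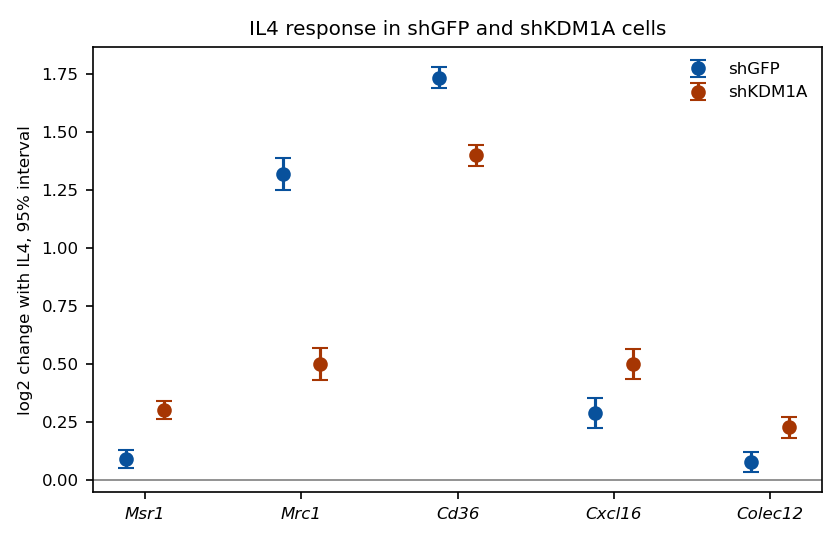
Log2 change with IL4 (y axis, points, with bars for 95% intervals) in shGFP (blue) and shKDM1A cells (brown) for the 5 genes whose response differed between the lines at an adjusted p under 0.05 (x axis). *Mrc1* and *Cd36* rise less and *Msr1*, *Cxcl16* and *Colec12* rise more with IL4 in shKDM1A cells.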

How the data were processed

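RNA-seq of 16 RAW libraries was analysed, grouped by their labels. Per the paper's methods and the table header, the authors aligned reads to mm9 with HISAT2 and Bowtie2, counted tags on exons with HOMER, with both strands together and genes condensed to single rows, and ran DESeq2 for their comparisons. The values deposited for each library are log2 values moderated at low levels (the transformation is not named), were not divided by length and are not counts, so no count model was fitted. Decimals are written with commas. The authors' comparison columns (log2 fold changes, p-values, adjusted p-values) were not used, nor was the BMDM table, which holds nothing else. The chromatin samples of the series were not analysed here.

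Differences were tested with limma 3.58.1 in R 4.3.3 (group means of 4 groups in 1 model, eBayes, two-sided tests with 15.6 total degrees of freedom), after a filter (at least 1 in at least 4 libraries, 12905 of 25094 genes), with Benjamini-Hochberg adjustment per comparison and a threshold of 0.05. The fit was tested on simulated data. The genes described are all 10 members. From the wider list they are, in each comparison, the 6 called genes with the largest absolute difference, and for the most-changed member the 5 genes with the highest Pearson r. Some genes that this rule picks are not reported here. Members and lists were chosen with earlier results of these data known. *Nt5dc2* was added after seeing the annotation (GENCODE vM1, mm9). *Itgb3*, *Mfge8*, *Tyro3* and *Pros1* were named after their values were seen. Alternatives changed the filter, fitted only the groups compared, added a replicate block, dropped each library in turn, centred libraries on their medians, normalized quantiles, let the prior variance follow a trend, or required an absolute log2 difference over 1.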

Additional observations from a re-analysis of the deposited data

Results flagged for a closer look

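Differences in the IL4 response between shKDM1A and shGFP cells drew attention to 5 scavenger receptor genes, by the interaction test in limma. For *Msr1* the response was higher in shKDM1A cells by 0.21 (95% interval 0.16 to 0.27), and over the 22 alternatives the difference lay between 0.19 and 0.22 with adjusted p from 3.37e-05 to 0.000802. For *Mrc1* it was -0.82 (range -0.84 to -0.79), with adjusted p up to 3.79e-06. For *Cd36* it was -0.33 (range -0.35 to -0.32), with adjusted p up to 4.72e-05. For *Cxcl16* it was 0.21 (range 0.19 to 0.23), with adjusted p up to 0.0277. For *Colec12* it was 0.15 (range 0.12 to 0.17), with adjusted p up to 0.0298. In none of the 24 combinations of the 6 tested members and the 4 groups did a single library lie apart from the other 3 by Dixon's test, where chance alone gives about 1 in 20.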

How the results depend on the processing

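Of 684 member differences recomputed under an alternative, 663 kept their direction and side of the threshold, 17 lost the call, 2 gained it and 2 changed sign. The calls lost were of *Axl* and *Gas6* and those gained of *Cd68*, as given above. The changes of sign were in differences of IL4 response that were not called: that of *Cd68* was -0.0053 (adjusted p = 0.944) without shKDM1A with IL4 replicate 3, in a range up to 0.0352 over libraries left out, and that of *Axl* was -0.0084 (adjusted p = 0.952) without shKDM1A replicate 1, in a range up to 0.0530, against 0.02 and 0.03 with all libraries. The causes were not tested. Counts of called genes stayed within 1.5 times in 227 of 238 cases. When the absolute log2 difference also had to exceed 1, 0 members were called in all 5 comparisons, and of the wider list 0 (knockdown without IL4), 1 (knockdown with IL4), 4 and 4 (IL4 in shGFP and shKDM1A cells) and 0 (difference in IL4 response) were left, by construction. Median centring gave 7 instead of 4 genes of the wider list for the difference in IL4 response. Scaling shifted the log2 differences of all genes by a median of -0.0114 to 0.0102, depending on the comparison and the scaling. Beside the knockdown counts given above, median centring moved the share of calls that were higher, over all genes, from 50.1% to 56.5% for IL4 in shKDM1A cells (2025 higher and 1560 lower) and from 58.0% to 66.2% for the difference in IL4 response (558 higher and 285 lower).

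The replicate numbers were not taken to pair the samples, since not every pair correlated over 0.1: deviations of same-numbered libraries correlated at -0.343 to 0.273, over 0.1 in 3 of 24 pairs. A library correlated best with its own number in 22 of 48 cases, more than the 12 that 1 in 4 would give, which is a hint of shared deviations from the data and not from the design. With the replicate block the members called were 5, 6, 4, 5 and 1 (the same numbers as without it), and those of the wider list 22, 24, 28, 22 and 4 against 22, 25, 28, 21 and 4. The effect of depth was not tested. *Axl* and the 4 members under the limit for testing had the lowest values.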
